A study of Rattus norvegicus with 6 samples.

Results

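The genes of MHC class II antigen presentation were followed in the spinal cord of rats with bone cancer pain (BCP). The 10 members were taken by gene name from a table of 30957 genes, of which 20645 had a count in any library: RT1-Ba, RT1-Bb, RT1-Da and RT1-Db1 (the chains of the rat class II molecules RT1.B and RT1.D), RT1-DMa and RT1-DMb, RT1-DOa and RT1-DOb, Cd74 and Ciita. All 10 names were found, each in 1 row. The 6 animals were adult female Wistar rats, with age given only as adult, and every one received Walker 256 breast cancer cells, a carcinoma line of rat origin, inside the marrow space of the left tibia. In the 3 BCP rats the cells were living, and in the 3 sham-operated rats they were heat-killed, so that surgery and cell debris were shared by both groups. On day 14 the lumbar enlargement on the injected side was taken without its meninges, and 1 strand-specific, ribosome-depleted total RNA library was made from each rat. Gene counts ran from 11779485 to 15004290 per library. The tissue was bulk cord, in which no cell type was separated, and p-values over these libraries measure the spread between 3 rats per group.

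Class II molecules are pairs of an alpha and a beta chain that carry peptides to the cell surface, where CD4+ T cells read them. The invariant chain, encoded by Cd74, occupies the groove while the pair travels to the endosome, and there it is cut down by cathepsins to a remnant that the DM pair exchanges for peptide, with the DO pair restraining DM. Ciita is the transactivator that switches the whole group on. It does not bind DNA itself but docks on a complex of RFX, CREB and NF-Y proteins that sits on the X and Y boxes of class II promoters. In the healthy cord class II is scarce, and activated microglia are a known source of it.

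The promoters are shown for the letters that most of the members share. RefSeq promoter sequences of build GRCr8, each running from 250 bases before to 50 bases after the transcription start, were matched for 8 of the 10 members. RT1-DMb and Ciita had no entry. The stretches below are the ones around the Y box, read 5′ to 3′ on the strand of the gene, and capitals mark the Y box (TGATTGG) and, upstream of it, either the X box (AGCAAC, then any base, then GATG) or a shorter form of its first letters (GCAAC). For Cd74, which had no TGATTGG, capitals mark CCAAT, the reverse complement of the ATTGG inside the Y box.

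RT1-Da (chr20:4515314-4515380, plus strand): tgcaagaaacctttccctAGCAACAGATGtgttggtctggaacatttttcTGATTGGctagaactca
RT1-Db1 (chr20:4560228-4560294, minus strand): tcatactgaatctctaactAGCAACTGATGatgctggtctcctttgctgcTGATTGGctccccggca
RT1-DOb (chr20:4627592-4627658, minus strand): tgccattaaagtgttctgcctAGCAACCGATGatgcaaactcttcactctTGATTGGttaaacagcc
RT1-Ba (chr20:4576962-4577028, plus strand): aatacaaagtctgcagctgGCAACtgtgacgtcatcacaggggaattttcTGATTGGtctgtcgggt
RT1-DOa (chr20:4758516-4758582, minus strand): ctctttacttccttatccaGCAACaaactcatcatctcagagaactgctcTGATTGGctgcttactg
RT1-Bb (chr20:4604165-4604231, minus strand): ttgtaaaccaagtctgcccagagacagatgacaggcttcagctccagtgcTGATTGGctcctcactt
RT1-DMa (chr20:4712385-4712451, minus strand): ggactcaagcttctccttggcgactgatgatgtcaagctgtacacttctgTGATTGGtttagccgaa
Cd74 (chr18:56526967-56527031, plus strand): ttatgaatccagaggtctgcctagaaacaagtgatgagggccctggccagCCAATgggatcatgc

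Searched on both strands of the whole window, TGATTGG was present in 7 of the 8 member promoters, all but Cd74, and in 7.06% of all 33469 promoters of the table. The X box was present in 3, those of RT1-Da, RT1-Db1 and RT1-DOb, and in 0.0478% of all promoters. In those 3 promoters the matches did not overlap, with 18 to 21 bases between X and Y box. With only GCAAC asked for, which is itself a part of the X box, followed on the same strand after 10 to 45 bases by TGATTGG, RT1-Ba and RT1-DOa joined them, giving 5 of 8 members and 0.272% of all promoters. This shorter form was chosen after the sequences had been seen. A match is a description of letters in this window, and no match says only that these letters are not in it. Of the other genes tested, 70 of the 972 with a Y box (7.2%) were called higher in BCP, and so were 3 of the 41 with GCAAC before TGATTGG (Ccdc102a, Hmgb2 and Tgfbr2) and 0 of the 4 with an X box, beside 6.35% of all genes tested.

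All 10 members were higher in BCP than in sham cords, at day 14, in every library. Each passed edgeR's quasi-likelihood test with Benjamini-Hochberg adjustment over 14908 genes and a change of over 2-fold, the rule by which 6.35% of all genes tested were called higher, and in each the 3 BCP libraries lay above the 3 sham libraries, as in 21.7% of all genes tested. RT1-DOa, RT1-DOb and Ciita were under the filter on low counts in every sham library and passed it only through the BCP group, so a test of these 3 could only find them higher, while the other 7 were over the filter in all sham libraries. The median log2 fold change of the 10 was 6.47, or 5.54 with RT1-DOa at its lower bound, against -0.01 over all genes tested. In bulk tissue, more cells that express a gene and more RNA per cell cannot be told apart. Beside these rises, the summed level of 9 microglial markers was 2.65-fold higher and that of 7 T cell markers 24.8-fold higher in BCP, and their part in the result was not tested.

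**Figure D1:**
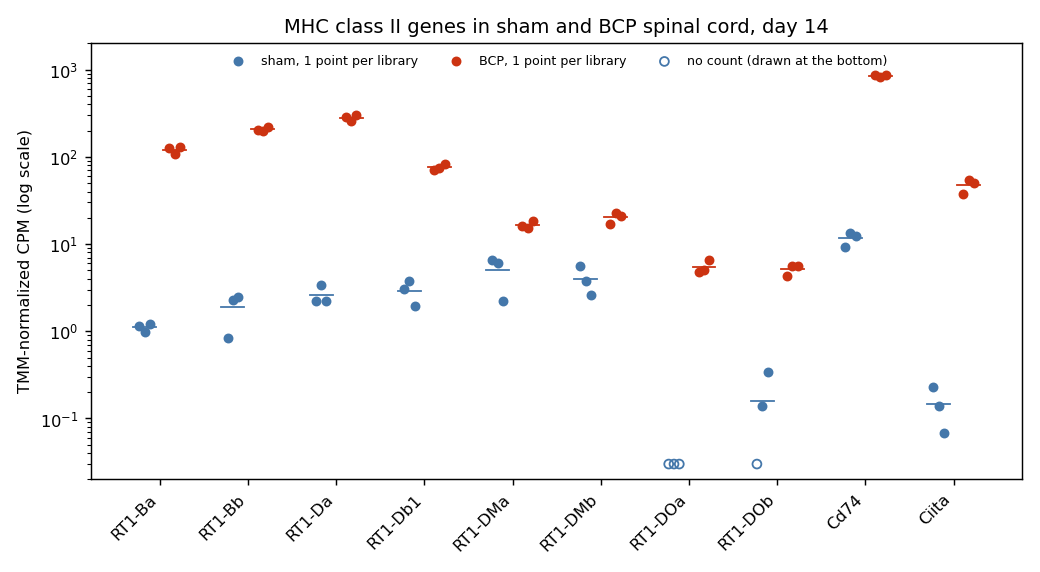
Normalized CPM (log axis) of the 10 class II genes in each of the 3 sham and 3 BCP libraries, with a line at each group mean and open circles for libraries without a count. The groups are apart for every gene, widely for the 4 chains, Cd74 and Ciita and narrowly for RT1-DMa and RT1-DMb.

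Ciita, the transactivator (chromosome 10, 5213350 to 5260608 in Rnor_6.0), was all but silent in sham cord, with 3, 2 and 1 counts. In BCP it had 448, 750 and 662 counts. Its mean of 47.2 ± 8.26 CPM (counts scaled to the effective library size, SD, n = 3) stood against 0.145 ± 0.0808 in sham. With 6 sham counts in all, the ratio of summed counts scaled for depth was 335, with a 95% exact interval of 154 to 915 that covers counting error only, and the fitted log2 fold change was 8.29 ± 0.25 (SE, adjusted p = 1.16e-12 in edgeR's test). Per length, Ciita reached 8.68 ± 1.58 FPKM (fragments scaled to transcript length and depth, SD, n = 3) in BCP from 0.0259 ± 0.0143 in sham.

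The 4 chains of the classical molecules lie within a short stretch of chromosome 20. In sham cord RT1-Ba (4066132 to 4070721), the alpha chain of RT1.B, had 15, 14 and 18 counts, against 1498, 1504 and 1705 in BCP cord. Its partner RT1-Bb (4039413 to 4049711) had 11, 33 and 37 counts against 2425, 2742 and 2908. For both genes the lowest BCP library lay far above the highest sham library. RT1-Da (4127644 to 4132616), the alpha chain of RT1.D, had 29, 49 and 33 counts in sham and 3383, 3651 and 3962 in BCP. Its partner RT1-Db1 (4087618 to 4097190) started from a like level of 40, 54 and 29 counts and reached 836, 1041 and 1103. RT1-Db1 was thus the chain with the smallest rise.

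Expressed as CPM, RT1-Ba went from 1.11 ± 0.122 to 121 ± 11.8, RT1-Bb from 1.88 ± 0.908 to 207 ± 12.3, RT1-Da from 2.62 ± 0.694 to 282 ± 19.8 and RT1-Db1 from 2.93 ± 0.912 to 76.2 ± 6.61 (SD, n = 3 each). The first 3 chains had nearly the same log2 fold change in edgeR's fit, 6.75 ± 0.12 for RT1-Ba (SE, adjusted p = 1.02e-18), 6.75 ± 0.21 for RT1-Bb (4.90e-06) and 6.74 ± 0.11 for RT1-Da (1.60e-13). RT1-Ba had the smallest p of all 14908 genes tested. RT1-Db1 changed by 4.70 ± 0.15 (adjusted p = 8.97e-12), a fold of 26.1 where the others had 107 to 108.

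Cd74, the invariant chain (chromosome 18, 56071478 to 56080849), had the highest level of the 10 rows in both groups, though in sham the RT1-DMa row summed with a like row described below stood at 7.97 ± 2.39 FPKM beside 7.79 ± 1.43 for Cd74. It had 122, 190 and 185 counts in sham and 10344, 11440 and 11579 in BCP. Its mean rose from 11.7 ± 2.10 to 856 ± 33.6 CPM, a log2 fold change of 6.19 ± 0.11 (SE, adjusted p = 3.16e-09 in edgeR's test). Ranked by mean FPKM over the gene table, Cd74 stood at place 43 in BCP (587 ± 21.9 FPKM) and at 8235 in sham.

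The DM pair, which loads peptide, had the highest sham levels of the 10 rows after Cd74. RT1-DMa (5240975 to 5244386) had 87, 87 and 33 counts in sham and 188, 211 and 245 in BCP. RT1-DMb (5227045 to 5234290) had 73, 54 and 39 counts against 199, 321 and 280. Sham library 3 was the lowest for both, and the groups did not overlap. RT1-DMa rose from 4.98 ± 2.40 to 16.5 ± 1.82 CPM (log2 fold change 1.74 ± 0.35, adjusted p = 0.0157) and RT1-DMb from 3.99 ± 1.48 to 20.3 ± 3.15 (2.36 ± 0.21, adjusted p = 3.30e-06, edgeR's test for both). The call of RT1-DMa was the least secure of the 10. It did not pass when any of the 3 BCP libraries was left out (adjusted p = 0.0559, 0.0526 and 0.0605 without BCP 1, 2 and 3), while without sham 3 its log2 fold change was 1.38 with an adjusted p of 1.34e-06.

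The low sham 3 values of RT1-DMa and RT1-DMb went along with those of some other genes. RT1-DMa stood in sham 3 at 35.1% of the mean of the other sham libraries, and Tap1 (39.4%), Psmb8 (38.1%), Psmb9 (47.2%) and Irf1 (56.9%), all known as interferon-induced, were low in the same library. RT1-DMb was at 56.4%, RT1-Db1 at 57.4% and RT1-Da at 79.2% there. Of the DM-like rows described below, LOC100909593 had 15.9, 16.3 and 10.3 CPM in sham 1, 2 and 3, and LOC100909630 had 7.93, 5.66 and 5.61. RT1-Ba (115%), Cd74 (111%) and RT1-Bb (159%) were not low in it. The part of this library in the DM results was not tested beyond the fits without it.

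The DM genes were also listed more than once. Besides RT1-DMa and RT1-DMb the table held LOC100909593, described as an M alpha chain-like class II antigen, and LOC100909630, described as an M beta 1 chain-like one, which lie between RT1-DOa and Psmb9. LOC100909630 spans 7246 bases, the same as RT1-DMb, and LOC100909593 spans 3387 where RT1-DMa spans 3412. Neither name is a symbol or synonym in the RefSeq gene table of GRCr8, which has 1 RT1-DMa and 1 RT1-DMb, and Tap2 is likewise listed beside both places. Reads that fit both places could be split between them, so the level of each DM row is uncertain. The like rows had more counts than the named ones. LOC100909593 had 209, 233 and 152 counts in sham and 398, 583 and 611 in BCP, which is 74.2% of the sum of both alpha rows in sham and 71.2% in BCP. LOC100909630 had 104, 81 and 83 counts against 377, 563 and 616, or 61.8% and 66.0% of the sum of both beta rows. Summed with its like row and fitted again, which was chosen after seeing the data, RT1-DMa changed by 1.58 ± 0.26 on the log2 scale (SE, adjusted p = 0.0134) and RT1-DMb by 2.54 ± 0.22 (adjusted p = 0.00037, edgeR's test). The sums stood at 24.4 ± 3.44 and 22.7 ± 4.03 FPKM in BCP, from 7.97 ± 2.39 and 3.75 ± 0.929 in sham (SD, n = 3).

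The DO pair, which restrains DM and is best known from B cells, was seen at low level and in BCP. RT1-DOa (3889370 to 3892449) had no count in any sham library and 56, 70 and 87 in BCP. Against a floor of 3 counts per sham library it was at least 25.5-fold higher, and the sham libraries can only be said to lie under that floor (adjusted p = 4.72e-09 in edgeR's test). RT1-DOb (4020317 to 4026346) had 0, 2 and 5 counts in sham and 51, 78 and 73 in BCP. Its log2 fold change was 4.89 ± 0.43 (SE, adjusted p = 3.42e-08), and the ratio of depth-scaled summed counts was 31.2 with a 95% exact interval of 14.9 to 78.7. The 2 genes were at 5.44 ± 1.00 and 5.14 ± 0.716 CPM in BCP (SD, n = 3). These were the lowest levels among the members, though close between the 2 chains.

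Per length, the members in BCP fell in the order Cd74 (587 FPKM), RT1-Da (99.4 ± 7.03), RT1-Ba (59.5 ± 5.72), RT1-Bb (36.5 ± 2.26), RT1-Db1 (12.02 ± 1.12), Ciita, RT1-DMa (7.09 ± 0.808), RT1-DMb (5.84 ± 0.943), RT1-DOb (1.97 ± 0.289) and RT1-DOa (1.75 ± 0.332). Neighbours in this order overlapped between libraries at 3 places only, Ciita with RT1-DMa, RT1-DMa with RT1-DMb, and RT1-DOb with RT1-DOa. The order rests on the lengths behind the FPKM, from 1479 bases for Cd74 to 6427 for RT1-Db1. The places of the DM genes rest on their single rows, and with the like rows added both (24.4 and 22.7 FPKM) would stand above RT1-Db1 and Ciita. In sham the highest after Cd74 were RT1-DMa (2.08 ± 0.998 FPKM) and RT1-DMb (1.11 ± 0.408), above each of the 4 chains (0.322 to 0.898). The coefficient of variation of CPM within BCP ran from 3.92% for Cd74 to 18.4% for RT1-DOa. In BCP library 3, 7 of the 10 members had their highest level of the group. Together the 10 held 380, 485 and 380 counts in sham, against 19428, 21808 and 22604 in BCP. This is a share of 0.00291% ± 0.000411 of gene counts in sham and 0.166% ± 0.00802 in BCP (SD, n = 3), 57.1-fold higher, and an exact two-sided permutation test gave p = 0.1, the smallest that 3 against 3 allows. Cd74 alone held 40.0% ± 8.32 of the member counts in sham and 52.3% ± 1.02 in BCP.

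Ratios between members within a library do not depend on its depth. They were computed as log2 ratios of counts with 0.5 added to each, for 8 pairs, with exact two-sided permutation tests whose smallest p is 0.1 and, adjusted over the 8, 0.267, so that no pair could pass. RT1-Ba over RT1-Bb was -0.60 ± 0.90 in sham and -0.78 ± 0.09 in BCP (SD, n = 3), a difference of -0.18 with overlapping groups. The balance of RT1-Ba and RT1-Da also stayed inside the sham spread, at -1.19 ± 0.51 and -1.22 ± 0.05. RT1-Da over RT1-Db1 was -0.46, -0.14 and 0.18 in the sham rats, against 2.02, 1.81 and 1.84 in the rats with BCP. These groups did not overlap, and the mean moved by 2.03 (exact permutation p = 0.1). By FPKM in BCP, RT1-Da was 8.30 ± 0.648 times RT1-Db1, whereas RT1-Ba was 1.63 ± 0.0967 times RT1-Bb, RT1-DMa 1.24 ± 0.224 times RT1-DMb and RT1-DOa 0.889 ± 0.126 times RT1-DOb. These values rest on the lengths implied by counts and FPKM. The lengths were 2878 bases for RT1-Da, 6427 for RT1-Db1, 2063 for RT1-Ba and 5754 for RT1-Bb. By counts RT1-Ba was below RT1-Bb in BCP.

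**Figure D2:**
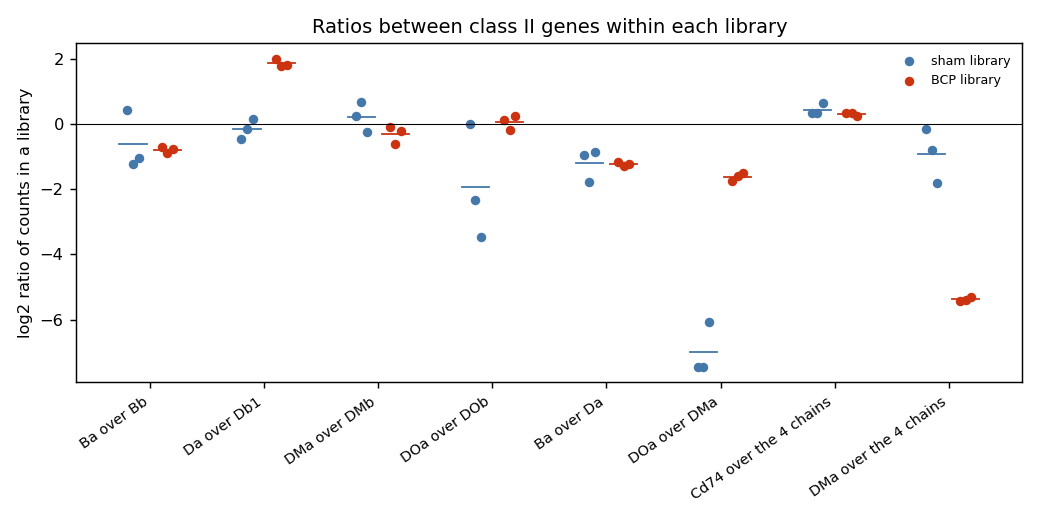
Log2 ratios of counts between members in each sham and BCP library, with a line at each group mean; "the 4 chains" is the sum of RT1-Ba, RT1-Bb, RT1-Da and RT1-Db1. RT1-Da over RT1-Db1, RT1-DOa over RT1-DMa and RT1-DMa over the chains are apart between groups, and the other pairs overlap.

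Cd74 was also set against the chains that it escorts. The log2 ratio of Cd74 to the sum of the 4 chains was 0.45 ± 0.18 in sham and 0.32 ± 0.05 in BCP, with overlapping groups and a difference of -0.13 (exact permutation p = 0.4). By FPKM the ratio was 3.24, 3.39 and 4.02 in sham and 2.85, 2.93 and 2.72 in BCP, where the groups did not overlap (exact permutation p = 0.1). RT1-DMa was lower against the chains in every BCP library: its log2 ratio was -0.91 ± 0.85 in sham and -5.38 ± 0.07 in BCP, and with the like row added it was 1.13 and -3.60 (difference -4.72). For RT1-DMb and its like row together the ratio went from 0.27 to -3.53. RT1-DOa over RT1-DMa moved the other way, from -6.99 ± 0.80 to -1.60 ± 0.13, where the sham value rests on libraries without an RT1-DOa count. RT1-DOa over RT1-DOb, -1.93 ± 1.76 and 0.08 ± 0.21, overlapped between the groups.

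Other class II rows of the table stayed near 0. RT1-Db2, a second RT1.D beta chain, had 1 count in sham 2 and no other, RT1-Ha had no sham count and 2, 1 and 4 in BCP, and a DP alpha 1 chain-like row, LOC100911800, had no sham count and 1, 0 and 2 in BCP. None of the 3 entered the test.

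In Rnor_6.0 the 8 RT1 members span 1355 kb of chromosome 20, in 2 blocks. The place of the DM block depends on the build. In GRCr8 the RT1-DMa stretch (from 4712385) lies between those of RT1-DOb (from 4627592) and RT1-DOa (from 4758516). RT1-DMb had no promoter entry in GRCr8. The 6 of the first block, RT1-DOa to RT1-Da, lie within 243.2 kb. With them lie 9 other listed genes, of which 8 were tested and 6 were called higher, with a median log2 fold change of 1.89. These 6 were both DM-like rows, Psmb8 and Psmb9 (subunits of the immunoproteasome) and Tap1 and Tap2 (the peptide transporter of class I), with log2 fold changes of 1.52 to 2.64, all below those of the 6 members there. Beyond RT1-Da, up to RT1-DMa, 53 other genes were tested, 13 were called higher and 1, Hspa1b, lower, with a median of 0.02. Over all genes tested 6.35% were called higher and 0.107% lower. The 13 included complement genes (C2, Cfb and C4a), class I genes (RT1-CE3, RT1-CE4, RT1-CE5 and RT1-CE7), Tnf, the microglial gene Aif1 and a further row of Tap2. Cfb (9, 4 and 6 counts in sham) and Tnf (4, 6 and 4) passed the filter on low counts only through the BCP group. These genes could therefore only be called higher. Another row of C2 (log2 fold change 1.16 ± 0.34, adjusted p = 0.0802) and C4b (1.43 ± 0.40, 0.0726) did not pass edgeR's test. Chromosome 20 as a whole held 2.77% ± 0.0354 of gene counts in sham and 3.001% ± 0.0266 in BCP, a gain of 0.236 percentage points of which the 8 RT1 members made up 0.0726.

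**Figure D3:**
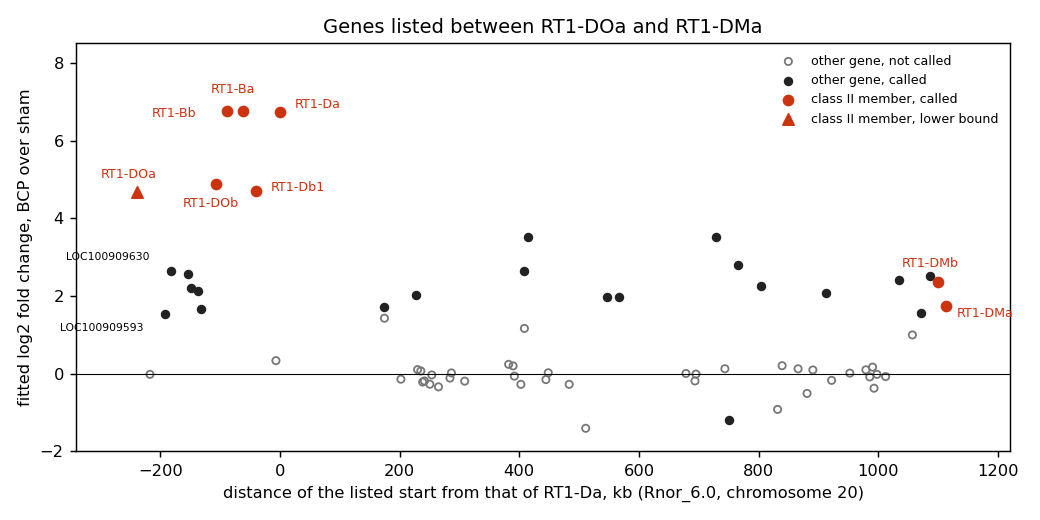
Fitted log2 fold change (BCP over sham) of the tested genes between RT1-DOa and RT1-DMa, against the distance in kb of each listed start from that of RT1-Da. Class II members are red, with RT1-DOa as a triangle at its lower bound of 4.67. The 6 members within 243.2 kb stand above every other gene, while RT1-DMa and RT1-DMb lie among their neighbours of Rnor_6.0. In GRCr8 RT1-DMa lies between RT1-DOb and RT1-DOa.

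Of lncRNA transcripts, 8 were listed within 10 kb of a member, 5 were tested and 3 were called higher, beside 1.14% called higher and 0.074% called lower of 12157 lncRNAs tested. All 3 lay inside the span of Cd74, and with 0 to 2 counts in each sham library they entered the test only through the BCP group and could only be called higher. NONRATT013483.2 had 2, 1 and 2 counts in sham and 76, 108 and 102 in BCP (log2 fold change 5.87 ± 0.30, adjusted p = 0.000102), NONRATT013481.2 had 1 in each sham library and 76, 77 and 82 in BCP (6.26 ± 0.29, adjusted p = 0.000102), and NONRATT013482.2 had no sham count and 27, 18 and 51 in BCP (adjusted p = 0.0215, edgeR's test). Their BCP counts were 0.288% to 0.857% of those of Cd74. The table gives no strand, so reads from these transcripts and from Cd74 itself cannot be told apart here. NONRATT003986.2, 1434 bases from Ciita, had 68, 114 and 106 counts in sham and 32, 87 and 88 in BCP and did not pass (log2 fold change -0.34 ± 0.36, adjusted p = 0.761), and neither did NONRATT013838.2, 1036 bases from Cd74, with 12, 10 and 14 counts against 14, 3 and 10 (-0.25 ± 0.53, adjusted p = 0.908).

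The other genes of the pathway were counted on lists of 39 names, 37 of them found in 38 rows. Of these, 34 were tested, and 13 were called higher and none lower, beside 6.35% and 0.107% of all genes tested. By an adjusted p under 0.05 alone, 25 were higher and 1 lower, beside 15.8% and 12.1% of all genes tested. Among the 13, Ifng and Lag3 passed the filter on low counts only through the BCP group and could only be called higher. Among 9 genes that process peptides or the invariant chain, 4 were called: Ctsz (log2 fold change 2.48 ± 0.25, adjusted p = 0.00313), Ifi30, the thiol reductase of the endosome (2.21 ± 0.11, 1.55e-11), Ctsh (1.56 ± 0.15, 0.00114) and Ctss, the cathepsin known for the last cut of the invariant chain (1.22 ± 0.12, 0.000278). Ctsb, at 471 ± 4.81 CPM in sham, reached 815 ± 66.2 in BCP, which passed the adjusted p but not 2-fold, as did Ctsd (283 ± 10.1 and 312 ± 9.75), and Ctsl stood at 118 ± 0.461 and 123 ± 1.32 CPM (adjusted p = 0.371).

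None of the 8 tested genes of the promoter complex was called, beside 6.35% of all genes tested, and 3 (Rfx5, Nfya and Creb1) were higher by an adjusted p under 0.05 alone. Rfx5 stood at 59.2 ± 1.22 and 67.5 ± 3.75 CPM in sham and BCP (log2 fold change 0.19 ± 0.06, adjusted p = 0.0319), and Nfya at 24.3 ± 0.917 and 32.4 ± 2.33 (0.42 ± 0.09, 0.00111), with Creb1 at 19.3 ± 1.47 and 23.5 ± 0.605 (0.28 ± 0.10, 0.03001). Crebbp (245 ± 9.11 and 256 ± 8.79 CPM, adjusted p = 0.352) and Ep300 (59.0 ± 2.56 and 65.5 ± 2.21, 0.0911), coactivators that Ciita recruits, did not pass. Rfxank had 9.02 ± 1.45 and 9.16 ± 1.15 CPM (adjusted p = 0.960), and Rfxap was listed in 2 rows at 0 in every library and not tested. Such a 0 can mean no transcript or reads not assigned to the rows, which cannot be told apart here.

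On the list of genes that feed into Ciita, 5 of 11 were called higher, beside 6.35% of all genes tested. Irf1, a factor that acts on the interferon-responsive promoter of Ciita, rose from 11.3 ± 3.53 to 99.3 ± 15.3 CPM (log2 fold change 3.15 ± 0.27, adjusted p = 0.00152). Irf8 (2.97 ± 0.10, 3.62e-11) and Spi1 (2.42 ± 0.12, 6.91e-12), factors of myeloid cells, rose as well. Prdm1, known as a repressor of Ciita in plasma cells, rose by 2.78 ± 0.23 (1.61e-08). Ifng, the cytokine that induces Ciita, had no sham count and 18, 25 and 18 counts in BCP, at least 7.29-fold higher (adjusted p = 4.30e-06). It passed the filter on low counts only through the BCP group, so it could only be called higher. Both chains of the receptor, Ifngr1 (0.64 ± 0.09) and Ifngr2 (0.96 ± 0.08), were higher by less than 2-fold, as were the kinases Jak1 (0.23 ± 0.04) and Jak2 (0.69 ± 0.08).

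Both receptors on the lists that bind class II on the partner cell rose. Cd4, carried by helper T cells and in rats also by macrophages and microglia, went from 5.09 ± 0.624 to 21.9 ± 3.21 CPM (log2 fold change 2.10 ± 0.14, adjusted p = 1.01e-09), and Lag3 from 0.568 ± 0.117 to 8.80 ± 1.76 (3.94 ± 0.28, 1.41e-09). Lag3, with 7, 10 and 7 sham counts, passed the filter on low counts only through the BCP group, so it could only be called higher. March1, the ubiquitin ligase that removes class II from the surface, rose by 1.54 ± 0.28 (adjusted p = 0.000243), while March8 stood at 154 ± 8.85 CPM in sham and 136 ± 7.04 in BCP (-0.17 ± 0.05, 0.0222). Cd44, the partner through which Cd74 signals, rose by 1.07 ± 0.08 (2.71e-08), and Cxcr4 had 2.59 ± 0.228 and 4.36 ± 0.906 CPM (0.76 ± 0.23, 0.0187). Mif, the ligand of Cd74, was listed at 0 in every library and not tested. Since the handling of reads with several locations is not given, this 0 cannot be read as absence of the transcript.

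**Figure D4:**
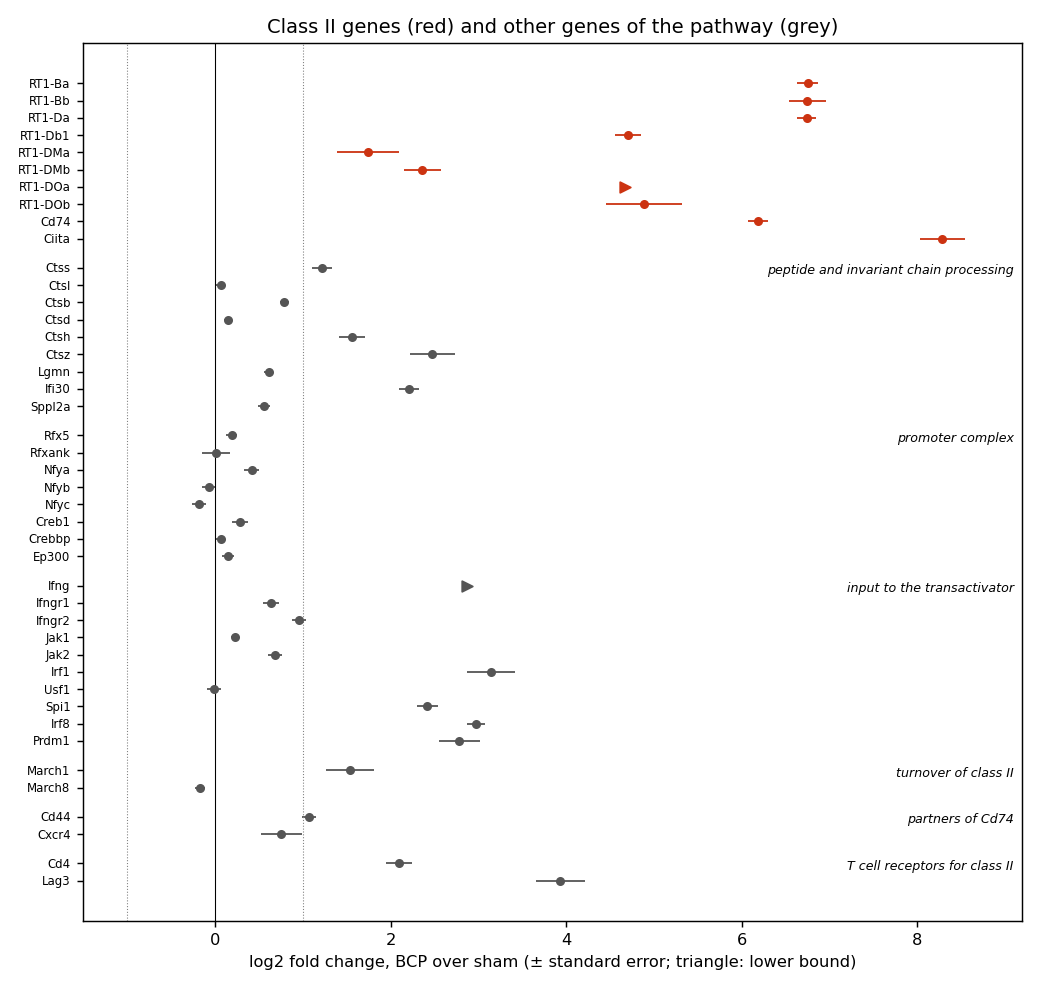
Log2 fold change (BCP over sham, ± SE from edgeR's fit) of the 10 class II genes in red and of 33 of the 34 tested pathway genes in grey, by list, with dotted lines at 2-fold and triangles for lower bounds. RT1-Ba, RT1-Bb, RT1-Da, Cd74 and Ciita stand above 6, and the promoter complex lies near 0.

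The marker genes were taken as summed CPM of each list. Calls of single markers stand beside 6.35% called higher and 0.107% called lower of all genes tested. The neuronal, astrocytic and oligodendrocyte markers of the labelled tissue were present in all libraries, the lowest list sum being 2172 CPM. Neuronal sums overlapped between the groups. Oligodendrocyte sums were 35210 to 40360 CPM in sham and 25120 to 28120 in BCP, with all 4 markers lower by adjusted p alone. Astrocytic sums were 2814 to 3145 and 4778 to 6510 CPM, where Aqp4 had 28568 counts in BCP 1 against 5037 and 4775 in BCP 2 and 3. None of these markers was called. Microglial markers summed to 246 to 317 CPM in sham and 720 to 847 in BCP, with 5 of 9 called higher (Aif1, Itgam, Csf1r, Cx3cr1 and C1qa) and P2ry12, Tmem119 and Trem2 among those not called. T cell markers summed to 0.878 to 1.98 CPM in sham and 23.7 to 36.0 in BCP, with 6 of 7 tested and all 6 called, among them Cd3e (0, 0 and 1 counts, then 56, 104 and 111) and Cd8a (0, 2 and 1, then 54, 97 and 80). All but Lck had at most 6 counts in any sham library and entered the test only through the BCP group, so that they could only be called higher.

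The next lists included those of the cells best known for class II outside the cord. B cell markers summed to 2.36 to 3.35 CPM in sham and 4.31 to 6.07 in BCP, most of it Cd22, and Ms4a1, Cd79a and Cd79b had at most 8 counts in any library. Dendritic cell markers summed to 49.1 to 52.6 and 49.5 to 53.7 CPM, with Siglech at 0 in every library and 1 of the 4 tested (Clec10a) called higher. The sum was mostly Flt3, so it says little of the other genes on the list. Irf4 passed the adjusted p but not 2-fold (log2 fold change 0.77 ± 0.27, adjusted p = 0.0397 in edgeR's test). Of the dendritic cell markers too low to be tested, Xcr1 had no sham count and 5, 7 and 5 in BCP, and Batf3 none and 8, 6 and 2. Itgax, given below, was not on the list. Markers of monocytes and border macrophages summed to 13.7 to 18.9 and 13.4 to 17.9 CPM, with 0 of the 4 tested called. Ccr2 was too low to be tested, with no count in any sham library and 1 in each BCP library. Neutrophil markers summed to 0.152 to 0.608 and 1.59 to 4.14 CPM (S100a8, the only one tested, was called and entered the test only through BCP), and epithelial tumour markers to 1.14 to 2.10 and 2.001 to 2.54 CPM (Krt18, the only one tested, was not called). The part of any of these cells in the class II result was not tested.

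**Figure D5:**
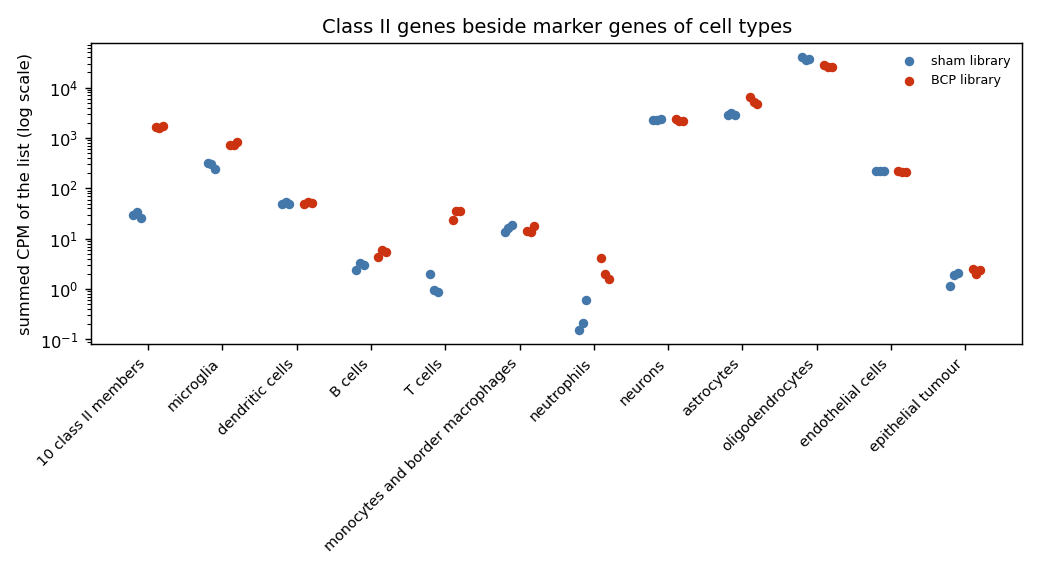
Summed CPM (log axis) of the 10 class II genes and of each marker list in the 3 sham and 3 BCP libraries. The class II sum and the T cell sum are the furthest apart between groups, the microglial sum is apart by 2.65-fold, and dendritic cell and border macrophage sums overlap.

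The genes whose level followed the members most closely were ranked by Pearson's r of log2 CPM with the mean log2 CPM of the 10 members over the 6 libraries, which fall into 2 groups, so that any gene with an even change scores high. The first 5 were Itgax (r = 0.99934), Nrip1 (0.99913), Scin (0.99908), Arhgap4 (0.99879) and Cxcl13 (0.99875), and 197 of 14898 other genes exceeded 0.99. Itgax, which encodes the integrin CD11c, had 7, 8 and 6 counts in sham and 382, 508 and 456 in BCP. Cxcl13, a chemokine that attracts B cells, had 5, 5 and 3 against 1337, 2246 and 2435. Scin had none in sham and 234, 372 and 326 in BCP, whereas Nrip1 differed by only 0.36 ± 0.05 on the log2 scale, which shows that the measure ranks evenness and not size.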

How the data were processed

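Per the labels and the study's methods, the authors used Seqtk as read filter, HISAT2 2.0.4 as aligner to Rnor_6.0 and StringTie 1.3.0 for FPKM. The deposited tables give, per gene and per lncRNA transcript and for each library, unnormalized counts and the authors' FPKM. The counting program, its strand setting and its handling of reads with several locations are not given in the sources used here. Columns with the authors' own comparison were not used. Gene counts summed to 11779485 to 15004290 per library.

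Libraries were grouped by their titles. Counts were fitted in edgeR 4.0.16 (R 4.3.3) with filterByExpr, TMM factors and the robust quasi-likelihood test of BCP against sham, and p-values were adjusted (Benjamini-Hochberg) over all genes tested, lncRNAs in a fit of their own. A gene was called at an adjusted p under 0.05 and a change of over 2-fold, thresholds that the study's methods state. SE is the log2 fold change over the root of F. CPM are TMM-scaled. For genes at 0 in every sham library a floor of 3 counts per library was used. Ratio intervals are exact (95%, conditional binomial). FPKM served for levels between genes. Alternatives were DESeq2 1.42.0, limma 3.58.1 on log2 FPKM, other filters, scalings and thresholds, a replicate block, and each library left out.

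The members and gene lists were chosen with earlier results of these data known. Named genes were all members, all called pathway genes with up to 3 more of each list by total count, tested lncRNAs within 10 kb of a member, markers by list, and the 5 genes most like the members; genes of the class II region, interferon-induced genes in sham 3, Nfya, Rfxank, Rfxap, Ifngr1 and Ifngr2 were named after their values were seen. Some listed genes are not reported here by name. Promoters came from RefSeq (GRCr8), whose coordinates were used beside the Rnor_6.0 layout only for the place of RT1-DMa between RT1-DOb and RT1-DOa.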

Additional observations from a re-analysis of the deposited data

How the results depend on the processing

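Of the 17 alternatives for each member, 9 members kept their call wherever they were tested, and RT1-DMa in 12 of 17. With limma on log2(FPKM + 1), whose pseudocount shrinks low genes, Ciita changed by 3.22, RT1-DOa by 1.45 and RT1-DOb by 1.49. RT1-DMa was lost with the replicate block (log2 fold change 1.78, adjusted p = 0.0824 in edgeR's test), against a fold of 2 (adjusted p = 0.338) and without each BCP library (1.65 to 1.81). With at least 10 counts in every library, RT1-DOa, RT1-DOb and Ciita left the table and no lncRNA near a member was called (0 against 3, since fewer were tested). Without a fold threshold 25 pathway genes counted as higher and 1 as lower. The rise in the share of counts was 0.170 percentage points without mitochondrial counts against 0.163, the change of RT1-DOa over RT1-DMa 4.41 with 1 added to each count against 5.39, and that of Cd74 over the 4 chains -0.313 by FPKM, where the groups separated, against -0.13. The sign of RT1-Ba over RT1-Bb turned without sham 1 (0.337), and that of RT1-Ba over RT1-Da without sham 1 (0.0905) and sham 3 (0.126); the cause was not tested. With 1 library left out, members called ran from 9 to 10, pathway genes from 13 to 14, region genes from 15 to 21, lncRNAs from 2 to 3, the share from 0.159 to 0.167, RT1-Ba over RT1-Bb from -0.483 to 0.337, RT1-Ba over RT1-Da from -0.331 to 0.126, RT1-Da over RT1-Db1 from 1.87 to 2.19 and RT1-DOa over RT1-DOb from 1.24 to 2.97. Over all genes 946 were called higher, against 548 in the test against a fold of 2, 626 with limma on log2(FPKM + 1) and 2352 without a fold threshold, and the lower calls went from 16 to between 0 and 37 where a fold threshold was kept. The numbers do not pair the rats (r of same-numbered deviations -0.105, 0.044 and -0.035), and with the replicate block 9 members and 907 genes were called higher. With 3 rats a group, permutation cannot go below 0.1, and under about 10 counts in sham a fold change is known only within wide counting limits.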
